A study of Mus musculus with 9 samples.

Results

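The genes described here encode the digestive enzymes of the lysosome, the small proteins that help those enzymes, the proteins of the lysosomal membrane, and the MiT/TFE transcription factors of lysosomal genes. They are 49 genes of the 55704 in the deposited table, chosen by name from textbook knowledge of the lysosome. Earlier results of these data were known when they were chosen. They were matched to the table by their Ensembl identifiers, and all 49 were found. All 49 had a mean of at least 0.1 FPKM over the 9 libraries, as did 20207 genes of the table, and 48 of them had a mean of at least 1 FPKM, Ctsk being the exception. By role they comprised 12 cathepsins and other proteases, 12 glycosidases, 4 sulfatases, 4 lipid and thioester hydrolases, 4 activator and lipid transfer proteins, 10 membrane proteins and 3 transcription factors. FPKM is the number of sequenced fragments on a gene, scaled by the length of the gene and the size of the library.

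The RNA came from neural stem cells (NSCs) of the subventricular zone of C57BL/6 mice aged 8 to 9 weeks. For 1 isolation, 2 female and 2 male mice were pooled, and the cells were passaged in bFGF and EGF, then plated on poly-L-ornithine and laminin in that medium for 16 to 18 hours. The first group (bFGF/EGF-treated NSCs, day 0) was in this proliferation medium, the second (bFGF/BMP4-treated NSCs, day 6) was then kept for 6 days in bFGF and BMP4 without EGF, and the third (BMP4-treated NSCs, day 6) for 6 days in BMP4 without bFGF or EGF. Each factor was used at 20 ng/mL, each group had 3 libraries, and nothing states whether these came from separate isolations, so that the p-values measure only the spread between these libraries. The bFGF/EGF-treated NSCs (the control in what follows) were compared with both other groups and were not cultured for the same time, so each difference from them includes the days in culture. All values are from cells in adherent culture without a niche.

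Lysosomes are acidic vesicles in which proteins, glycans, lipids and nucleic acids from endocytosis and autophagy are broken down. Their enzymes are made in the endoplasmic reticulum, most of them are tagged with mannose-6-phosphate in the Golgi apparatus and sorted by receptors, and a proton pump, the V-ATPase, acidifies the lumen. TFEB, TFE3 and MITF enter the nucleus when the kinase mTORC1 is inactive and bind E-box letters in the promoters of many lysosomal genes. In the adult subventricular zone, quiescent NSCs are known to hold more lysosomes than activated NSCs.

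Between 15892854 and 17419822 fragments per library fell on genes, and libraries of 1 group correlated with each other at 0.95 to 0.964 over the tested genes, on the log2 scale. The treatments were visible in their direct targets: the BMP targets Id1, Id2, Id3, Smad6 and Smad7 were 5 of 5 higher in both BMP4-containing media, and the FGF targets Spry4, Etv4, Etv5 and Dusp6 were 4 of 4 lower in BMP4-treated NSCs than in either group with bFGF. Sox2, a defining gene of NSCs, was present in all libraries at 121 to 202 FPKM, whereas Nes had a mean of 151 FPKM in the control, 3.55 with bFGF/BMP4 and 15.8 with BMP4 alone. Of the 10 listed NSC markers, 3 were higher and 6 lower than the control with bFGF/BMP4, 5 were higher and 2 lower with BMP4 alone, and 6 were higher and none lower with BMP4 alone than with bFGF/BMP4. Their sum was 1749 to 1862 FPKM in the control, 715 to 817 with bFGF/BMP4 and 1513 to 1956 with BMP4 alone, and their part in the results was not tested. Microglia are rich in lysosomes, and 12 of their 13 listed markers were in the table: Itgam, C1qa, C1qb, C1qc and Tyrobp were at 0 in every library, and 2 had a mean of at least 0.1 FPKM. The sum of all 12 was 0.411 to 0.876 FPKM in the control, 0.412 to 0.540 with bFGF/BMP4 and 1.49 to 1.77 with BMP4 alone. Tmem119, with a highest value of 1.46 FPKM, was higher than the control in both groups, with log2 fold changes of 1.76 ± 0.36 (adjusted p = 0.0024) and 3.85 ± 0.36 (adjusted p = 1.1e-05). P2ry12 was lower, with -1.37 ± 0.34 (adjusted p = 0.0073) and -1.01 ± 0.34 (adjusted p = 0.029). The part of microglia genes in the results was not tested. The summed astrocyte markers (Gfap, Aqp4, Aldh1l1, S100b, Slc1a2 and Gja1) ranged from 129 to 176 FPKM in the control, from 492 to 526 with bFGF/BMP4 and from 3234 to 4096 with BMP4 alone. Of the 6, 5 were higher than the control in both groups, as most of the 49 lysosomal genes were, and Aldh1l1 was lower in both. The 2 sets differed between the groups at day 6. There, 4 of the 6 astrocyte markers were higher in BMP4-treated NSCs and Slc1a2 was lower (median of 1.47 on the log2 scale). Of the 49 lysosomal genes, 9 were higher and 8 lower in that comparison (median of 0.04). The part of the astrocyte markers in the results was not tested. The summed oligodendrocyte progenitor markers (5 of 5) ranged from 1563 to 2263 FPKM in the control, from 1313 to 1796 with bFGF/BMP4 and from 216 to 423 with BMP4 alone. Gene by gene, 4 of the 5 were lower than the control with bFGF/BMP4 and 5 with BMP4 alone, with median log2 fold changes of -1.78 and -2.33. Markers of neurons (6 of 6), ependymal cells (5), oligodendrocytes (5), vascular and mural cells (5) and fibroblasts (4) summed to at most 32.1 FPKM each in the control and 22.4 with bFGF/BMP4, and to 105 to 185, 52.4 to 62.3, 20.9 to 26.4, 3.75 to 5.41 and 0.264 to 0.376 with BMP4 alone. In bulk RNA, fewer cells of a type and less RNA per cell cannot be told apart.

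Of the 49 lysosomal genes, 35 were higher and 3 were lower in bFGF/BMP4-treated NSCs than in bFGF/EGF-treated NSCs, at an adjusted p of at most 0.05 (limma on log2(FPKM + 0.1), Benjamini-Hochberg adjustment over the 20207 genes). Over all tested genes, 25% were higher and 23.6% lower in that comparison. At a change of at least 2-fold as well, 22 lysosomal genes were higher and 2 were lower, against 16.5% and 14.1% of all tested genes. Without bFGF/EGF replicate 3, 5 members rather than 3 were lower. The median log2 fold change of the 49 genes was 0.88, and that of all tested genes was 0.06.

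In BMP4-treated NSCs, 36 of the 49 were higher and 5 were lower than in bFGF/EGF-treated NSCs, where 29.6% and 25.3% of all tested genes were higher and lower. With a change of at least 2-fold, 24 were higher and 1 was lower, against 21.3% and 15.4%. The median log2 fold change of the members was 0.95 and that of all tested genes was 0.10. Since both comparisons used the same control libraries, their counts are not independent of each other. Ctsk, Ctsz, Naglu, Sgsh, Asah1 and Tfe3 passed in neither comparison.

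**Figure D1:**
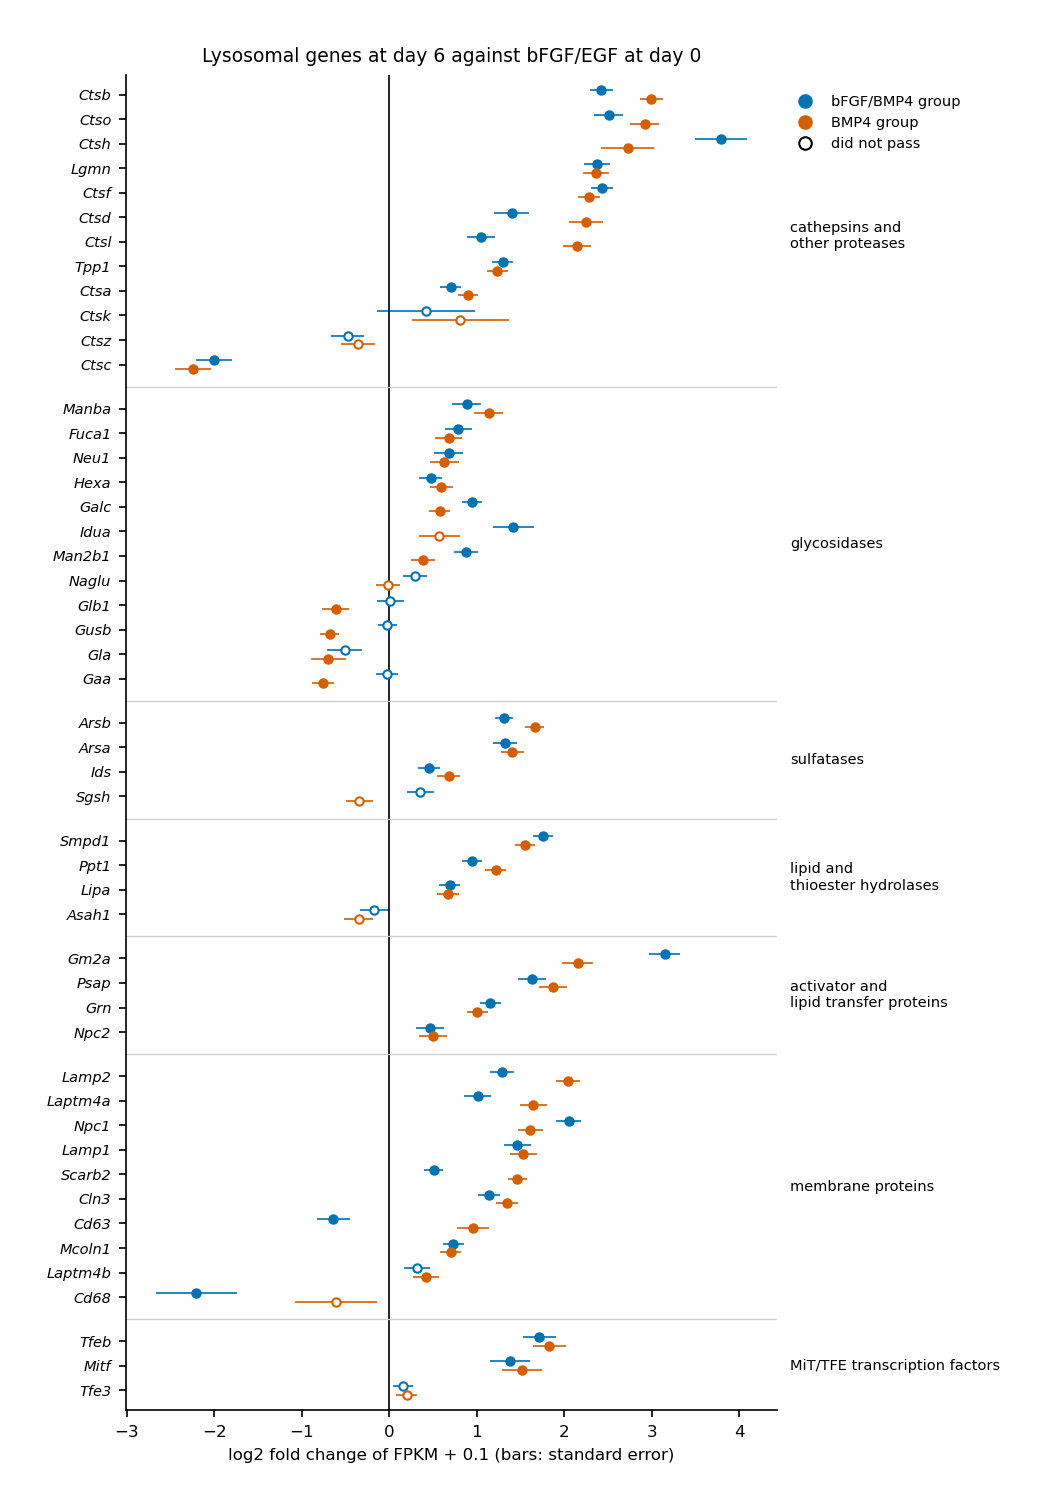
Log2 fold change of FPKM + 0.1 of the 49 lysosomal genes at day 6 against bFGF/EGF-treated NSCs at day 0 (x axis), by role (right); blue points are bFGF/BMP4-treated NSCs, orange points BMP4-treated NSCs, bars the standard error, and open points did not pass an adjusted p of 0.05. Most points lie right of 0 in both groups, while Ctsc lies left in both, Cd63 lies on opposite sides, and Gaa, Glb1, Gla and Gusb lie left in BMP4-treated NSCs.

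Between the groups at day 6, which were cultured for the same time, 9 members were higher and 8 lower in BMP4-treated NSCs than in bFGF/BMP4-treated NSCs, and 32 did not pass. Over all tested genes, 12.2% were higher and 8.89% were lower. At 2-fold or more, 3 members were higher and 1 lower, against 8.41% and 5.14% of all genes. Without BMP4 replicate 2, 1 was higher and 2 were lower by that much. Of the 8 calls of lower levels, 5 were left without bFGF/BMP4 replicate 2, and 4 without bFGF/BMP4 replicate 3 or BMP4 replicate 1. The members' median was 0.04 and that of all genes was 0. The roles differed in direction: 5 of 10 membrane proteins were higher and none was lower, with a median of 0.42, whereas 5 of 12 glycosidases were lower and none was higher, with a median of -0.34. This difference between the roles was not tested.

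By name, the 9 that were higher in BMP4-treated than in bFGF/BMP4-treated NSCs were Ctsb, Ctsd, Ctsl, Arsb, Lamp2, Laptm4a, Scarb2, Cd63 and Cd68, and all but Cd68 were also higher than in bFGF/EGF-treated NSCs. The 8 that were lower were Ctsh, Gaa, Glb1, Gusb, Idua, Man2b1, Sgsh and Gm2a. Of these, Gaa, Glb1 and Gusb were also lower in BMP4-treated than in bFGF/EGF-treated NSCs, whereas Ctsh, Gm2a and Man2b1 were higher than there, and Idua and Sgsh did not pass. These comparisons share the BMP4 libraries.

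**Figure D2:**
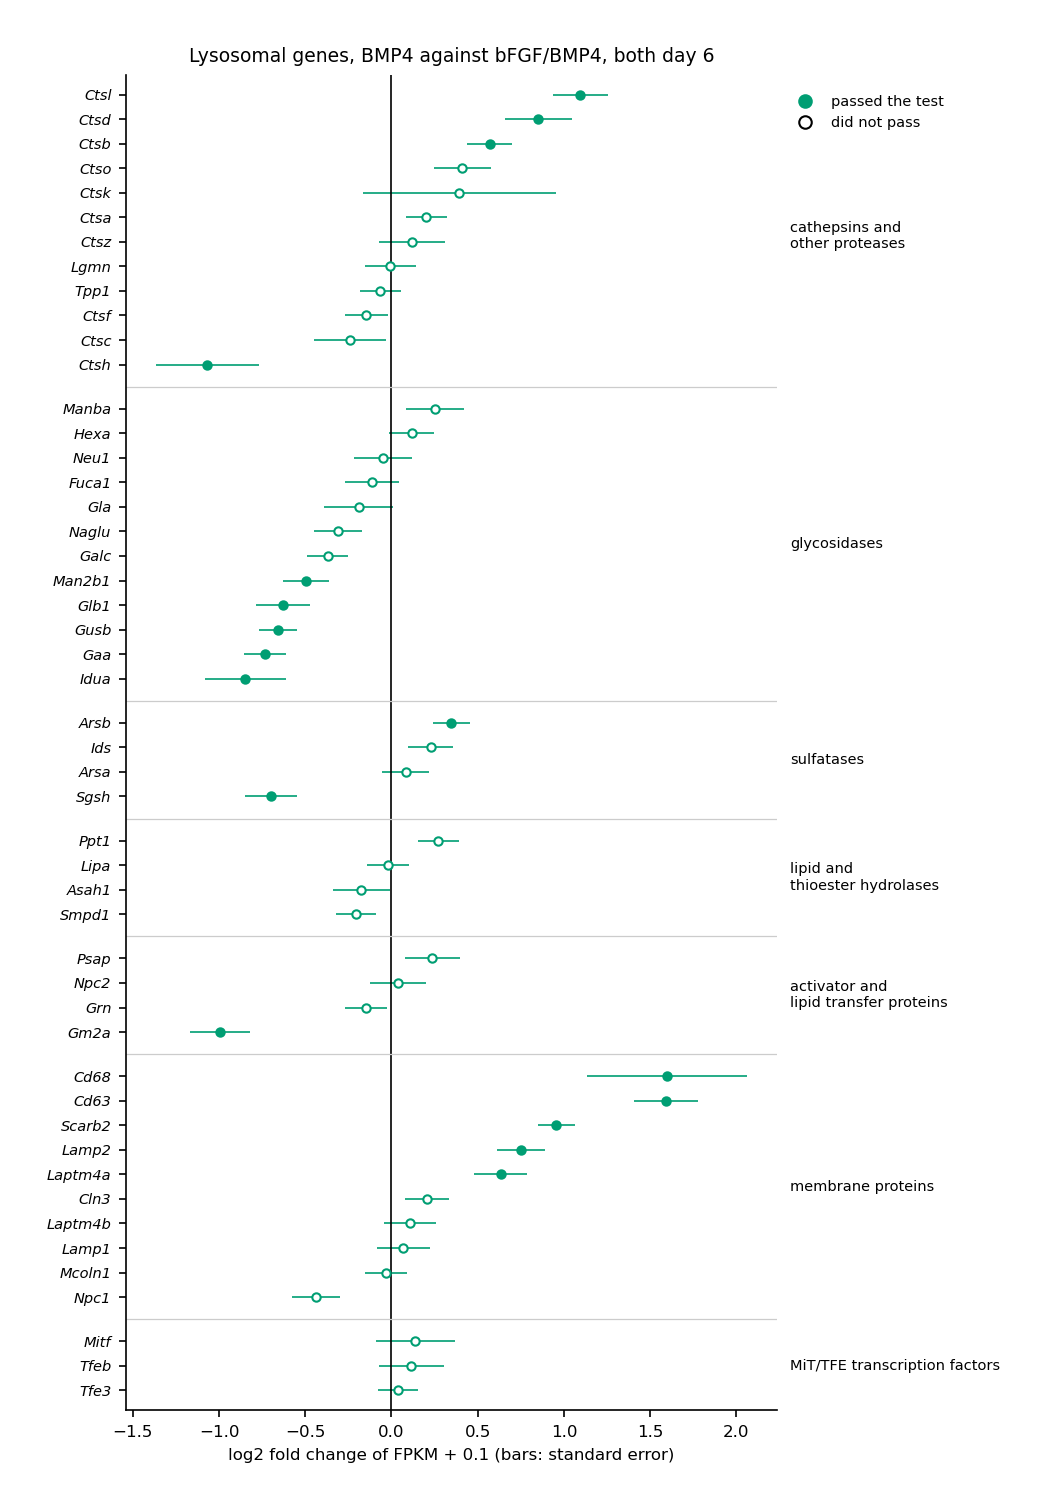
Log2 fold change of FPKM + 0.1 between BMP4-treated and bFGF/BMP4-treated NSCs, both at day 6, for the 49 genes by role (x axis; bars, standard error; filled points passed an adjusted p of 0.05). Filled points right of 0 are mostly cathepsins and membrane proteins, and filled points left of 0 are mostly glycosidases.

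Summed over the 49 genes, the level was 1325, 1544 and 1248 in the bFGF/EGF libraries, 3104, 3154 and 3299 in the bFGF/BMP4 libraries and 3615, 4453 and 3724 in the BMP4 libraries, in FPKM. These sums were 0.473% to 0.524% of all FPKM in the control, 1.13% to 1.17% with bFGF/BMP4 and 1.30% to 1.36% with BMP4 alone, and no 2 groups overlapped. Psap, the most abundant member, did not carry this alone: without it, the group means were 1099 ± 124, 2342 ± 98.1 and 2935 ± 388 FPKM (SD, n = 3 each).

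The FPKM columns did not sum to the same total: the sums lay between 256230 and 326302, highest in BMP4 replicate 2, and the highest of the bFGF/EGF libraries was replicate 2. BMP4 replicate 2 was the highest BMP4 library for 32 of the 49 members, as it was for 40.1% of all tested genes, and for 14 of the 49 once each library was scaled to the same sum. Among the bFGF/EGF libraries, replicate 2 was the highest for 35 members, and for 23 after that scaling. With these 2 libraries left out, an alternative chosen after the data were seen, 36 members were higher and 4 lower in bFGF/BMP4-treated NSCs, 35 were higher and 7 lower in BMP4-treated NSCs, and 8 were higher and 8 lower between the groups at day 6.

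**Figure D3:**
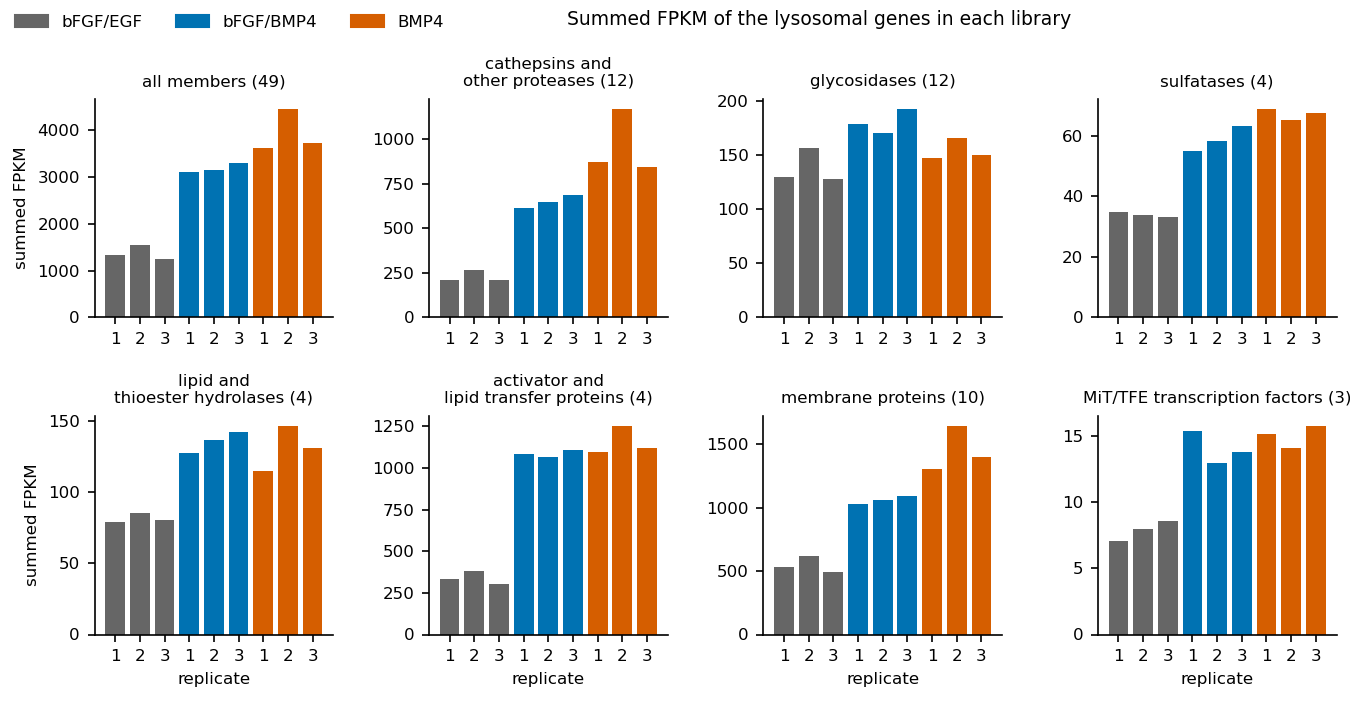
Summed FPKM (y axis, from 0) of all 49 lysosomal genes and of each role, for replicates 1 to 3 of each group (bars; the number of genes is in parentheses). The sum over all members lay between 1248 and 1544 FPKM in the bFGF/EGF libraries and at 3104 FPKM or more in all libraries of day 6, while the glycosidase sums of the 3 groups lay close together.

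The transcription factors were expressed at low levels next to the enzymes. TFEB is the best known activator of lysosomal genes, and Tfeb was at 1.05, 1.41 and 1.63 FPKM in the control libraries, 5.37, 3.86 and 4.76 in the bFGF/BMP4 libraries and 4.80, 5.11 and 5.15 in the BMP4 libraries. All libraries of day 6 were above all libraries of day 0. Tfeb rose by a log2 fold change of 1.71 ± 0.19 (adjusted p = 4.8e-05) in bFGF/BMP4-treated NSCs and 1.83 ± 0.19 (adjusted p = 2.2e-05) in BMP4-treated NSCs (log2 fold changes are given ± SE and mean FPKM values ± SD, n = 3). Mitf, the melanocyte and osteoclast member of the family, was at 1.01, 1.20 and 1.84 FPKM in the control libraries, 3.79, 3.61 and 3.34 in the bFGF/BMP4 libraries and 3.84, 3.28 and 4.87 in the BMP4 libraries. Its groups at day 6 overlapped each other and not the control, with log2 fold changes of 1.38 ± 0.23 (adjusted p = 7.1e-04) and 1.52 ± 0.23 (adjusted p = 3.0e-04). Tfe3, the most abundant of the family, was at 5.03, 5.35 and 5.11 FPKM in the control libraries, 6.19, 5.47 and 5.70 in the bFGF/BMP4 libraries and 6.47, 5.69 and 5.68 in the BMP4 libraries. It was higher in every library of day 6 than in every control library, but by so little that neither difference passed (0.16 ± 0.12, adjusted p = 0.29, and 0.20 ± 0.12, adjusted p = 0.18). None of the 3 differed between the groups at day 6 by the test. RNA levels say nothing of where the proteins were in the cell.

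The family is known to bind E-boxes, whose core is CACGTG, in lysosomal promoters most often as TCACGTGA, its core with a T before and an A after it. Promoter windows of RefSeq (GRCm38.p6), from 250 bases before to 50 bases after a transcription start, were in hand for 44 of the 49 genes (53 windows), and not for Asah1, Ctsb, Ctsh, Laptm4b and Npc1. On either strand, the 8 letters TCACGTGA were in windows of Cln3, Ctsa, Ctsd, Gla and Mcoln1 (9.43% of the members' windows and 0.974% of the 32851 windows of all genes), and the 7 letters TCACGTG were in windows of 12 members (22.6% and 3.77%). The core alone was in 26.4% and 7.15% of the windows, with Ctsf and Ctsl added. These strings contain each other, so their counts are nested. The members whose windows held the 7 letters but not the 8 were Arsa, Gaa, Glb1, Lamp1, Lgmn, Naglu and Sgsh. The following stretches are shown because they hold the 8 letters before the start, or, for Lamp1, the most matches (4). They run 5′ to 3′ on the strand of the gene, with every match to the 7 letters on either strand in capitals.

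Cln3: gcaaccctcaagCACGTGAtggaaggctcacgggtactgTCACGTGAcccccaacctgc
Ctsa: atgagcaaactgTCACGTGAtgcag
Ctsd: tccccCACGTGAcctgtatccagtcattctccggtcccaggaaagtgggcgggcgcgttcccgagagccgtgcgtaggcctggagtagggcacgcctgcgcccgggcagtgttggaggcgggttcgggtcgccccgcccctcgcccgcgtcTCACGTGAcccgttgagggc
Mcoln1: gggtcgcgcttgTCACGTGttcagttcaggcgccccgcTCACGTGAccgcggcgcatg
Lamp1: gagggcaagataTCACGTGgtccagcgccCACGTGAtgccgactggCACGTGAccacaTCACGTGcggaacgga
Gla: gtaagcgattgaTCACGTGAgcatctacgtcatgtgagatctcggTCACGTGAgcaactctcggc

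In GRCm38.p6 they lie at chr7:126583339-126583397 (minus strand), chr2:164833748-164833772 (plus), chr7:142387907-142388077 (minus), chr8:3500435-3500492 (plus), chr8:13159087-13159160 (plus) and chrX:134601181-134601245 (minus). Among the matches before the start, the centre of the nearest was 118 bases before it in Cln3, 9 in Ctsa and 95 in Ctsd. For the others it was 42 in Mcoln1, 12 in Lamp1 and 191 in Gla. The window of Ctsa held the 8 letters again, centred 8 bases after the start and beyond the stretch shown. Cln3, Ctsa, Ctsd, Mcoln1 and Lamp1 were higher in both groups at day 6. Gla did not pass in bFGF/BMP4-treated NSCs and was lower in BMP4-treated NSCs. Of the 5 members that were lower in BMP4-treated NSCs than in the control, Gaa, Gla and Glb1 had windows with TCACGTG. The windows of the others, Ctsc and Gusb, lacked it. The 12 members with TCACGTG had medians of 0.72 in bFGF/BMP4-treated and 0.80 in BMP4-treated NSCs on the log2 scale, with 7 of 12 higher in each, and the 32 members whose windows lacked it had medians of 0.91 and 0.98, with 25 of 32 higher in each. The 14 members with the core CACGTG had medians of 0.89 and 1.12, with 9 of 14 higher in each, against 0.88 and 0.88, with 23 of 30 higher in each, in those without it. The 5 members with the 8 letters had medians of 0.73 and 0.90, against 0.88 and 0.95 in the 39 without them. The order of the medians thus changed with the letters searched. A match of letters is a description of the window and not a site of binding.

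Among the 12 proteases, 9 were higher and 1 was lower in each group at day 6 (75% and 8.33%). Of all tested genes, 25% were higher and 23.6% lower with bFGF/BMP4, and 29.6% and 25.3% with BMP4 alone. The median log2 fold changes of the proteases were 1.35 and 2.19. Cathepsin B (Ctsb, chr14:63358384-63383372 in GRCm39), a cysteine protease, was at 26.2, 28.6 and 22.6 FPKM in the control libraries, 138, 137 and 139.9 in the bFGF/BMP4 libraries and 205, 231 and 182 in the BMP4 libraries. The 3 groups did not overlap, and the BMP4 libraries were the highest. Its log2 fold change was 2.42 ± 0.13 (adjusted p = 5.2e-07) in bFGF/BMP4-treated and 2.99 ± 0.13 (adjusted p = 1.1e-07) in BMP4-treated NSCs, the largest rise of any member in the latter (7.96-fold), and 0.57 ± 0.13 (adjusted p = 0.011) between them. Exons of Ctsb share 1184 bases with Fdft1 on the other strand, whose group means were 42.3, 21.6 and 36.9 FPKM from the control to the bFGF/BMP4 and then the BMP4 libraries. The mean of Fdft1 was thus lower with bFGF/BMP4 than in the control, opposite to Ctsb, and higher with BMP4 than with bFGF/BMP4, in the direction of Ctsb. The part of this overlap in the difference at day 6 was not tested. Cathepsin D (Ctsd), the main aspartic protease of the lysosome, was at 87.8, 118 and 88.7 FPKM in the control libraries, 227, 262 and 283 in the bFGF/BMP4 libraries and 412, 599 and 399.8 in the BMP4 libraries. The order of the groups was the same, with log2 fold changes of 1.40 ± 0.20 (adjusted p = 2.3e-04), 2.25 ± 0.20 (adjusted p = 7.2e-06) and, at day 6, 0.85 ± 0.20 (adjusted p = 0.011). BMP4 replicate 2 was well above the other BMP4 libraries, which were still above all bFGF/BMP4 libraries.

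Cathepsin L (Ctsl), a cysteine protease, was at 10.3, 11.1 and 10.0 FPKM in the control libraries, 21.5, 21.3 and 22.3 in the bFGF/BMP4 libraries and 40.2, 61.8 and 40.2 in the BMP4 libraries. No groups overlapped, and BMP4-treated NSCs exceeded bFGF/BMP4-treated NSCs by 1.10 ± 0.16 (adjusted p = 8.7e-04) on the log2 scale, again with BMP4 replicate 2 on top. Without that library the difference was 0.89. Cathepsin O (Ctso) was at 2.59, 2.80 and 3.40 FPKM in the control libraries, 14.1, 18.2 and 19.3 in the bFGF/BMP4 libraries and 20.6, 26.6 and 21.4 in the BMP4 libraries. The 3 groups did not overlap. It rose in both groups at day 6 (2.51 ± 0.16, adjusted p = 1.8e-06 and 2.92 ± 0.16, adjusted p = 4.9e-07), while the difference of 0.41 ± 0.16 between them did not pass (adjusted p = 0.11). Cathepsin F (Ctsf) was at 3.59, 4.33 and 3.90 FPKM in the control libraries, 23.6, 19.8 and 21.7 in the bFGF/BMP4 libraries and 17.7, 21.8 and 19.4 in the BMP4 libraries, a cysteine protease like Ctso. Legumain (Lgmn), an asparaginyl endopeptidase that processes cathepsins, was at 18.7, 21.0 and 18.3 FPKM in the control libraries, 97.9, 100.4 and 102 in the bFGF/BMP4 libraries and 88.9, 127 and 87.6 in the BMP4 libraries. Both were far above the control in every library of day 6, with overlapping groups there: Ctsf rose by 2.43 ± 0.13 and 2.29 ± 0.13, and Lgmn by 2.37 ± 0.15 and 2.36 ± 0.15, on the log2 scale. Exons of Ctso and Ctsf overlap Tdo2 and Actn3 on the other strand, both of which had group means of at most 0.201 FPKM.

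Cathepsin H (Ctsh, chr9:89936205-89958148), an aminopeptidase, was near the lower limit in the control: it was at 0.314, 0.267 and 0.176 FPKM in the control libraries, 4.88, 4.45 and 4.82 in the bFGF/BMP4 libraries and 1.36, 3.31 and 2.34 in the BMP4 libraries. Its rise in bFGF/BMP4-treated NSCs, 3.79 ± 0.30 (adjusted p = 6.2e-06), was the largest of any member with the pseudocount of 0.1. With a pseudocount of 1 it was 2.19, below the 3.09 of Gm2a and also below the rises of Ctsb, Lgmn, Ctso and Ctsf. The rise of Ctsh in BMP4-treated NSCs was 2.73 ± 0.30 (adjusted p = 3.6e-05). It rested on 14 to 24 fragments per library in the control, so the fold is less certain than its level at day 6. BMP4-treated NSCs were below bFGF/BMP4-treated NSCs in every library (-1.07 ± 0.30, adjusted p = 0.030), and this call was lost when bFGF/BMP4 replicate 1, 2 or 3 or BMP4 replicate 1 or 3 was left out (adjusted p = 0.075 to 0.095). Cathepsin C (Ctsc), which activates the granule proteases of immune cells, went the other way: it was at 4.06, 5.30 and 4.14 FPKM in the control libraries, 0.868, 1.02 and 1.26 in the bFGF/BMP4 libraries and 0.933, 0.957 and 0.720 in the BMP4 libraries. The control libraries were all above the others, and the log2 fold changes were -2.003 ± 0.21 (adjusted p = 3.6e-05) and -2.24 ± 0.21 (adjusted p = 1.1e-05). Of the rest, Ctsa and Tpp1 rose in both groups by 0.70 to 1.30 on the log2 scale. Ctsz, an exopeptidase, passed in no comparison, but was lower in bFGF/BMP4-treated NSCs without bFGF/EGF replicate 3 or BMP4 replicate 2 and in BMP4-treated NSCs without BMP4 replicate 2 (adjusted p = 0.038 to 0.041). Ctsk, a protease of osteoclasts, stayed at or below 0.321 FPKM in all libraries.

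**Figure D4:**
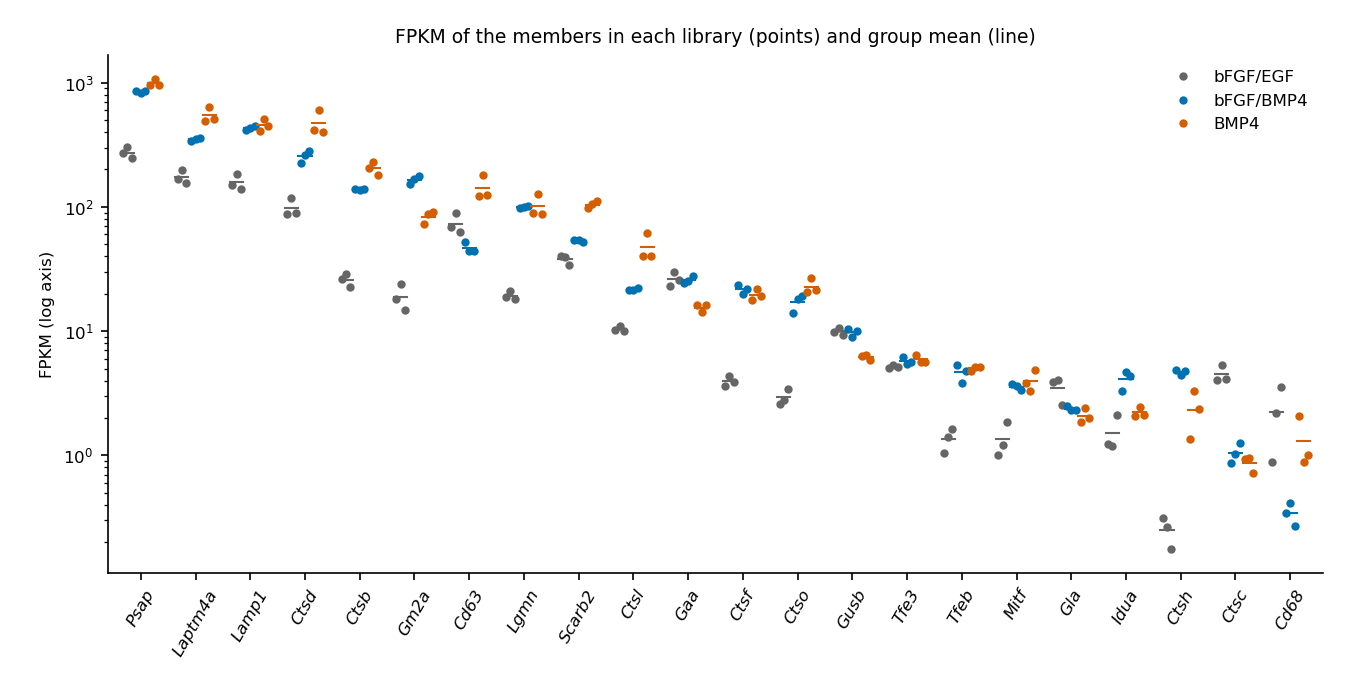
FPKM (log axis) of the 22 members whose values in every library are given in the text, ordered by their mean; points are libraries (grey, bFGF/EGF; blue, bFGF/BMP4; orange, BMP4) and lines are group means. Grey points lie below the others for most genes and above them for Ctsc, and blue points lie lowest for Cd63 and Cd68.

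The 12 glycosidases had smaller medians than the proteases. In bFGF/BMP4-treated NSCs 7 were higher and none was lower (58.3% and 0%, against 25% and 23.6% of all tested genes). In BMP4-treated NSCs 6 were higher and 4 were lower (50% and 33.3%, against 29.6% and 25.3% of all tested genes). The medians were 0.58 and 0.48. Acid α-glucosidase (Gaa, chr11:119158708-119176525), which degrades glycogen and is deficient in Pompe disease, was at 23.1, 30.0 and 26.0 FPKM in the control libraries, 24.3, 25.2 and 27.8 in the bFGF/BMP4 libraries and 16.1, 14.1 and 16.2 in the BMP4 libraries. The BMP4 libraries were below all others, with a log2 fold change of -0.76 ± 0.12 (adjusted p = 4.9e-04) against the control and -0.73 ± 0.12 (adjusted p = 0.0020) against bFGF/BMP4-treated NSCs, and the control and bFGF/BMP4 libraries overlapped (-0.03 ± 0.12, adjusted p = 0.88). β-glucuronidase (Gusb) had the same order, with 9.91, 10.7 and 9.37 FPKM in the control libraries, 10.4, 9.04 and 10.1 in the bFGF/BMP4 libraries and 6.32, 6.39 and 5.83 in the BMP4 libraries. The BMP4 libraries were again below all others, with a log2 fold change of -0.68 ± 0.11 (adjusted p = 5.1e-04) against the control and -0.66 ± 0.11 (adjusted p = 0.0020) against bFGF/BMP4-treated NSCs. Its exons share 640 bases with Vkorc1l1 on the other strand, whose group means were between 12.7 and 15.7 FPKM. The lysosomal β-galactosidase (Glb1), the source of senescence-associated β-galactosidase activity, had group means of 18.8 ± 3.04, 18.8 ± 1.41 and 12.2 ± 2.05 FPKM and was lower in BMP4-treated NSCs than in both other groups (-0.62 ± 0.16, adjusted p = 0.0071 and -0.63 ± 0.16, adjusted p = 0.016). The second of these calls was lost without bFGF/BMP4 replicate 1 or 3 or BMP4 replicate 1 or 3 (adjusted p = 0.057 to 0.068).

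α-galactosidase A (Gla), deficient in Fabry disease, was at 3.89, 4.07 and 2.55 FPKM in the control libraries, 2.52, 2.32 and 2.31 in the bFGF/BMP4 libraries and 1.87, 2.40 and 1.99 in the BMP4 libraries. All libraries of day 6 were below all control libraries. The log2 fold change in BMP4-treated NSCs was -0.70 ± 0.20 (adjusted p = 0.013), and it missed the threshold without bFGF/EGF replicate 1 or 2 or BMP4 replicate 1 (adjusted p = 0.051 to 0.053). In bFGF/BMP4-treated NSCs, which lay just below bFGF/EGF replicate 3 and overlapped the BMP4 libraries, the difference of -0.51 ± 0.20 did not pass (adjusted p = 0.058), but did so without bFGF/EGF replicate 3 (adjusted p = 0.0078). Exons of Gla share 11 bases with Rpl36a on the other strand, whose group means fell from 93.6 to 31.4 and 25.3 FPKM from the control over bFGF/BMP4 to BMP4, and the part of this overlap was not tested. α-L-iduronidase (Idua), which degrades dermatan and heparan sulfate, was at 1.25, 1.19 and 2.11 FPKM in the control libraries, 3.32, 4.67 and 4.38 in the bFGF/BMP4 libraries and 2.09, 2.45 and 2.13 in the BMP4 libraries. The bFGF/BMP4 libraries were above all others, and the control and BMP4 libraries overlapped. The log2 fold change was 1.42 ± 0.23 (adjusted p = 6.8e-04) in bFGF/BMP4-treated NSCs. In BMP4-treated NSCs it was 0.57 ± 0.23 (adjusted p = 0.063), which passed without bFGF/EGF replicate 3 (adjusted p = 0.0074). The BMP4-treated were below the bFGF/BMP4-treated NSCs (-0.85 ± 0.23, adjusted p = 0.027), a call lost without bFGF/BMP4 replicate 2 or 3 or any 1 of the BMP4 libraries (adjusted p = 0.0504 to 0.11). Exons of Idua share 124 bases with Dgkq on the other strand, whose group means were 1.62, 2.62 and 2.68 FPKM from the control over bFGF/BMP4 to BMP4, and the part of this overlap was not tested. Man2b1, an α-mannosidase, had the same order with means of 4.86 ± 0.487, 8.99 ± 0.745 and 6.37 ± 0.680 FPKM, and was lower in BMP4-treated than in bFGF/BMP4-treated NSCs (-0.49 ± 0.13, adjusted p = 0.025), a call lost without bFGF/BMP4 replicate 2 or 3 or BMP4 replicate 1 or 2 (adjusted p = 0.059 to 0.095). Its rise over the control in BMP4-treated NSCs (0.38 ± 0.13, adjusted p = 0.033) was lost without bFGF/EGF replicate 1 or 3 or BMP4 replicate 3 (adjusted p = 0.074 to 0.11). Hexa, Galc, Neu1, Manba and Fuca1 rose in both groups, by 0.47 to 1.14 on the log2 scale. Of these calls, that of Hexa in bFGF/BMP4-treated NSCs was lost without bFGF/EGF replicate 1 or bFGF/BMP4 replicate 3 (adjusted p = 0.056 and 0.055). Exons of Manba share 72 bases with Oaz2-ps on the other strand, whose group means were 3.40, 5.66 and 6.70 FPKM from the control over bFGF/BMP4 to BMP4, higher at day 6 as for Manba, and the part of this overlap was not tested. Galc, the galactocerebrosidase, was lower in BMP4-treated than in bFGF/BMP4-treated NSCs without bFGF/EGF replicate 2 or BMP4 replicate 2 (adjusted p = 0.046 and 0.039), and did not pass with all libraries (adjusted p = 0.051) or in the other fits that left out 1 library (adjusted p = 0.051 to 0.14). Naglu, an enzyme of heparan sulfate degradation, passed in no comparison, except as higher in bFGF/BMP4-treated NSCs without bFGF/BMP4 replicate 2 (adjusted p = 0.046).

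Of the 4 sulfatases, Arsa, Arsb and Ids were higher in both groups at day 6 (75%, against 25% and 29.6% of all tested genes). Arylsulfatase B (Arsb) had group means of 6.49 ± 0.509, 16.2 ± 0.274 and 20.7 ± 1.38 FPKM and rose by 1.31 ± 0.11 and 1.66 ± 0.11 on the log2 scale. Its difference between the groups at day 6 (0.35 ± 0.11, adjusted p = 0.041) was lost without bFGF/EGF replicate 1, any 1 of the bFGF/BMP4 libraries or BMP4 replicate 1 or 2 (adjusted p = 0.055 to 0.11). Ids, the iduronate sulfatase, rose by 0.45 ± 0.13 and 0.68 ± 0.13, the first of which was lost without bFGF/BMP4 replicate 2 or 3 (adjusted p = 0.052 and 0.064). Arylsulfatase A (Arsa), which degrades sulfatide, had means of 4.44 ± 0.686, 11.2 ± 0.953 and 11.9 ± 0.807 FPKM. Sgsh, the N-sulfoglucosamine sulfohydrolase of heparan sulfate degradation, passed in neither comparison with the control, apart from that of BMP4-treated NSCs without bFGF/EGF replicate 3 (adjusted p = 0.034), but was lower in BMP4-treated than in bFGF/BMP4-treated NSCs, with means of 2.21 ± 0.215 and 3.64 ± 0.113 FPKM (-0.70 ± 0.15, adjusted p = 0.0086). Its exons share 277 bases with Slc26a11 on the other strand, whose group means were 2.13, 3.94 and 1.88 FPKM from the control over bFGF/BMP4 to BMP4, lower with BMP4 than with bFGF/BMP4 as for Sgsh, and the part of this overlap was not tested. The enzymes of heparan sulfate degradation among the members (Ids, Idua, Sgsh, Naglu and Gusb) did not share 1 direction.

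The lipid and thioester hydrolases Smpd1 (acid sphingomyelinase), Lipa (lysosomal acid lipase) and Ppt1 (palmitoyl-protein thioesterase) were higher in both groups at day 6, and Asah1 (acid ceramidase) passed in neither, except as lower in BMP4-treated NSCs without BMP4 replicate 2 (adjusted p = 0.017). Smpd1 had group means of 17.3 ± 2.01, 58.4 ± 2.77 and 50.6 ± 3.51 FPKM, a rise of 1.76 ± 0.12 and 1.55 ± 0.12 on the log2 scale. Lipa rose by 0.69 ± 0.12 and 0.67 ± 0.12, and Ppt1 by 0.95 ± 0.12 and 1.22 ± 0.12. None of the 4 passed between the groups at day 6.

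All 4 activator and lipid transfer proteins were higher in both groups at day 6, against 25% and 29.6% of all tested genes. Prosaposin (Psap, chr10:60113431-60138380), the precursor of the saposins that present sphingolipids to their hydrolases, was at 271, 305 and 245 FPKM in the control libraries, 852, 825 and 853 in the bFGF/BMP4 libraries and 957, 1075 and 955 in the BMP4 libraries. Every library of day 6 was far above the control libraries, and the log2 fold changes were 1.63 ± 0.16 (adjusted p = 2.4e-05) and 1.87 ± 0.16 (adjusted p = 6.6e-06), or 3.09-fold and 3.65-fold. The BMP4 libraries were also above the bFGF/BMP4 libraries, but that difference of 0.24 ± 0.16 did not pass (adjusted p = 0.36). The GM2 activator protein (Gm2a, chr11:54988883-55003855), which presents the ganglioside GM2 to β-hexosaminidase A, was at 18.2, 24.0 and 14.7 FPKM in the control libraries, 153, 168 and 176 in the bFGF/BMP4 libraries and 72.3, 87.4 and 90.5 in the BMP4 libraries. The 3 groups did not overlap, and here bFGF/BMP4-treated NSCs were the highest: the rise was 3.15 ± 0.18 (adjusted p = 6.3e-07), or 8.86-fold, in them and 2.15 ± 0.18 (adjusted p = 4.8e-06) in BMP4-treated NSCs, and the log2 fold change of the latter against the former was -0.99 ± 0.18 (adjusted p = 0.0026). Hexa, the α subunit of the enzyme that Gm2a serves, rose by only 0.47 ± 0.13 and 0.59 ± 0.13 in the same groups. Progranulin (Grn) rose by 1.15 ± 0.12 and 1.01 ± 0.12. Npc2, the soluble cholesterol carrier, passed with 0.46 ± 0.16 (adjusted p = 0.039) and 0.50 ± 0.16 (adjusted p = 0.025), and lost the first call in 6 and the second in 4 of the 9 fits that left out 1 library. These were bFGF/EGF replicate 1 or 3 or BMP4 replicate 3 for both calls, any 1 of the bFGF/BMP4 libraries for the first, and BMP4 replicate 2 for the second (adjusted p = 0.051 to 0.12).

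Among the 10 membrane proteins, 7 were higher and 2 lower in bFGF/BMP4-treated NSCs (70% and 20%, against 25% and 23.6% of all tested genes). In BMP4-treated NSCs 9 were higher and none lower (90% and 0%, against 29.6% and 25.3%). The medians were 0.87 and 1.40. Lamp1, one of the most abundant glycoproteins of the lysosomal membrane, was at 151, 183 and 140.1 FPKM in the control libraries, 417, 432 and 449.8 in the bFGF/BMP4 libraries and 411, 507 and 449.7 in the BMP4 libraries. The groups at day 6 overlapped each other and lay far above the control, with rises of 1.46 ± 0.15 (adjusted p = 3.5e-05) and 1.53 ± 0.15 (adjusted p = 1.8e-05). Lamp2, which carries the receptor of chaperone-mediated autophagy among its isoforms, had means of 13.7 ± 2.29, 33.5 ± 2.07 and 56.4 ± 5.47 FPKM and was higher in BMP4-treated than in bFGF/BMP4-treated NSCs (0.75 ± 0.14, adjusted p = 0.0034). Laptm4a, a transmembrane protein of late endosomes and lysosomes, was at 169, 197 and 157 FPKM in the control libraries, 339.6, 351 and 358 in the bFGF/BMP4 libraries and 493, 635 and 508 in the BMP4 libraries. Its 3 groups did not overlap, and the call between the groups at day 6 (0.63 ± 0.15, adjusted p = 0.015) was lost without bFGF/BMP4 replicate 1 or 2 (adjusted p = 0.052 and 0.057). LIMP-2 (Scarb2), the receptor that carries glucocerebrosidase to the lysosome, was at 40.0, 39.5 and 34.2 FPKM in the control libraries, 54.4, 54.4 and 52.5 in the bFGF/BMP4 libraries and 97.5, 105 and 111 in the BMP4 libraries. The groups did not overlap, and BMP4-treated NSCs exceeded bFGF/BMP4-treated NSCs by 0.96 ± 0.11 (adjusted p = 1.7e-04).

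Cd63 (chr10:128731528-128748709), a tetraspanin of late endosomes and exosomes, was the member that passed in opposite directions. It was at 69.4, 88.6 and 62.4 FPKM in the control libraries, 52.6, 43.8 and 43.9 in the bFGF/BMP4 libraries and 123, 181 and 125 in the BMP4 libraries. The 3 groups did not overlap: the bFGF/BMP4 libraries were the lowest and the BMP4 libraries the highest. The log2 fold change was -0.64 ± 0.18 (adjusted p = 0.016) in bFGF/BMP4-treated and 0.95 ± 0.18 (adjusted p = 0.0015) in BMP4-treated NSCs, and their difference was 1.59 ± 0.18 (adjusted p = 2.1e-04). The fall was lost as a call without bFGF/EGF replicate 2, bFGF/BMP4 replicate 2 or bFGF/BMP4 replicate 3 (adjusted p = 0.058 to 0.062), and the difference between the groups at day 6 was not lost without any 1 library.

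Cd68, a macrophage marker of the lysosomal membrane, was at 0.889, 2.21 and 3.56 FPKM in the control libraries, 0.347, 0.415 and 0.270 in the bFGF/BMP4 libraries and 2.06, 0.884 and 1.01 in the BMP4 libraries. The bFGF/BMP4 libraries were below all others, and the control and BMP4 libraries overlapped and spread widely. It fell in bFGF/BMP4-treated NSCs (-2.21 ± 0.47, adjusted p = 0.0031), did not pass in BMP4-treated NSCs (-0.61 ± 0.47, adjusted p = 0.30, but 0.041 without bFGF/EGF replicate 1), and its difference between the groups at day 6 (1.60 ± 0.47, adjusted p = 0.035) was lost without any library other than bFGF/EGF replicate 1 or 3 (adjusted p = 0.053 to 0.14). The microglia gene Tmem119 was also higher in BMP4-treated than in bFGF/BMP4-treated NSCs (2.09 ± 0.36, adjusted p = 0.0021). P2ry12, the other microglia marker tested, did not pass there (0.36). Against the control, Tmem119 was higher in bFGF/BMP4-treated NSCs (1.76), where Cd68 was lower. The part of these markers in the values of Cd68 was not tested. Npc1, the membrane cholesterol exporter, rose by 2.05 ± 0.14 and 1.61 ± 0.14, where its soluble partner Npc2 rose by 0.46 ± 0.16 and 0.50 ± 0.16. Between the groups at day 6 its difference of -0.44 ± 0.14 did not pass (adjusted p = 0.051), but did so without BMP4 replicate 3 (adjusted p = 0.016). Cln3 rose by 1.14 ± 0.13 and 1.34 ± 0.13, and the calcium channel Mcoln1 by 0.73 ± 0.12 and 0.70 ± 0.12. Laptm4b passed as higher in BMP4-treated NSCs alone (0.42 ± 0.15, adjusted p = 0.036), a call lost without bFGF/EGF replicate 1 or 3, bFGF/BMP4 replicate 2 or BMP4 replicate 2 or 3 (adjusted p = 0.057 to 0.11), and its difference from bFGF/BMP4-treated NSCs was 0.11 ± 0.15 (adjusted p = 0.68).

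Exon bases of 23 members are shared with a gene on the other strand in GENCODE vM39, and whether the fragments were counted by strand is not given in the sources used here, so that reads of such pairs may not be told apart. For 10 of the 23, the partner's highest group mean was above the member's lowest. One of these, Neu1, shares 431 bases with the non-coding 1110038B12Rik, whose means were 25.0, 7.89 and 6.14 FPKM from the control to the bFGF/BMP4 and then the BMP4 libraries, opposite in direction to the rise of Neu1. Ctsa shares 1252 bases with Pltp, whose means were 1.66, 1.69 and 15.0 FPKM, so that it moved with Ctsa in BMP4-treated NSCs, and its part was not tested.

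Other genes of the lysosome were read as lists in the same fit, by counts. Of 21 tested further hydrolases (of 23), 12 were higher and 2 lower in bFGF/BMP4-treated and 13 higher and 3 lower in BMP4-treated NSCs, with medians of 0.53 and 0.73. These shares were 57.1% and 9.52% in the former and 61.9% and 14.3% in the latter. For all tested genes they were 25% and 23.6% in the former and 29.6% and 25.3% in the latter. Hyal1, a hyaluronidase, rose most (2.59 ± 0.26 and 3.07 ± 0.26), and Prcp, a lysosomal carboxypeptidase, fell most (-2.26 ± 0.18 and -2.13 ± 0.18). Ctss, a cathepsin of immune cells, was at 0 in all libraries. Of 20 tested further membrane proteins (of 21), 13 were higher and 1 lower in bFGF/BMP4-treated (65% and 5%) and 14 higher and 1 lower in BMP4-treated NSCs (70% and 5%). Tmem106b rose most in the former (2.12 ± 0.17), the cation channel Tpcn1 rose most in the latter (2.17 ± 0.16), and the peptide transporter Abcb9 fell in both (-1.27 ± 0.22 and -0.67 ± 0.22).

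Of 20 tested V-ATPase genes (of 22), 6 were higher in bFGF/BMP4-treated NSCs (30% of them, against 25% of all tested genes) and 12 in BMP4-treated NSCs (60% against 29.6%), and none was lower, with medians of 0.30 and 0.45. On the TPM scale, 3 were lower in bFGF/BMP4-treated NSCs. Tcirg1, the a3 subunit, rose most (1.41 ± 0.16 and 1.70 ± 0.16). Under quantile normalization 12 were higher in bFGF/BMP4-treated NSCs. Mannose-6-phosphate tagging and sorting of the hydrolases was read from 10 genes, of which none was higher and 3 were lower in bFGF/BMP4-treated NSCs (30% lower, against 23.6% of all tested genes), and 4 were higher and 5 lower in BMP4-treated NSCs (40% and 50%, against 29.6% and 25.3%), with medians of 0.13 and -0.26. The cation-independent mannose-6-phosphate receptor Igf2r fell, with log2 fold changes of -0.86 ± 0.19 (adjusted p = 0.0039) and -1.19 ± 0.19 (adjusted p = 4.1e-04), while the cation-dependent receptor M6pr rose in BMP4-treated NSCs (0.55 ± 0.11, adjusted p = 0.0016). Gnptab, a subunit of the phosphotransferase that makes the tag, was lower in BMP4-treated than in bFGF/BMP4-treated NSCs (-0.80 ± 0.14, adjusted p = 0.0023). Of the 10, 3 were higher in bFGF/BMP4-treated NSCs without bFGF/EGF replicate 2 or BMP4 replicate 2, and 5 under quantile normalization.

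Of 18 genes of the mTORC1 platform on the lysosome, 3 were higher and 2 lower in bFGF/BMP4-treated and 4 higher and 3 lower in BMP4-treated NSCs, shares below those of all tested genes. Without bFGF/EGF replicate 2, 5 were higher in bFGF/BMP4-treated NSCs, and under quantile normalization 6 and 8 were higher in the groups at day 6. The arginine sensor Slc38a9 rose most (1.07 ± 0.21 and 1.24 ± 0.21), and the folliculin partner Fnip2 fell most (-1.76 ± 0.15 and -1.41 ± 0.15). Rheb, the direct activator of mTORC1, was higher, and Rptor, its scaffold subunit, was lower in BMP4-treated than in bFGF/BMP4-treated NSCs (0.48 ± 0.12, adjusted p = 0.015 and -0.54 ± 0.15, adjusted p = 0.027). Of 15 tested genes of late endosome and lysosome fusion (of 16), 6 were higher and 2 lower in each group at day 6 (40% and 13.3%). The shares of all tested genes were 25% and 23.6% in bFGF/BMP4-treated and 29.6% and 25.3% in BMP4-treated NSCs. With 1 library left out at a time, 5 to 6 of the 15 were higher with bFGF/BMP4 and 4 to 6 with BMP4 alone. Under the other alternatives, 6 to 9 and 5 to 9 were higher. Rilp, which links Rab7 on late endosomes to dynein, had the largest rise: it was at 0.186, 0.240 and 0.429 FPKM in the control libraries, 3.46, 2.02 and 1.55 in the bFGF/BMP4 libraries and 10.7, 14.5 and 8.62 in the BMP4 libraries. The groups did not overlap, and the log2 fold change was 2.64 ± 0.33 (adjusted p = 1.3e-04), 4.90 ± 0.33 (adjusted p = 1.6e-06) and, between the groups at day 6, 2.27 ± 0.33 (adjusted p = 9.0e-04). Arl8a, which moves lysosomes outwards along microtubules, was lower in bFGF/BMP4-treated NSCs than in the control (-0.57 ± 0.14, adjusted p = 0.0082). It was higher in BMP4-treated than in bFGF/BMP4-treated NSCs (0.76 ± 0.14, adjusted p = 0.0040). Both directions were those of Cd63, but Arl8a, unlike Cd63, did not pass in BMP4-treated NSCs against the control.

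**Figure D5:**
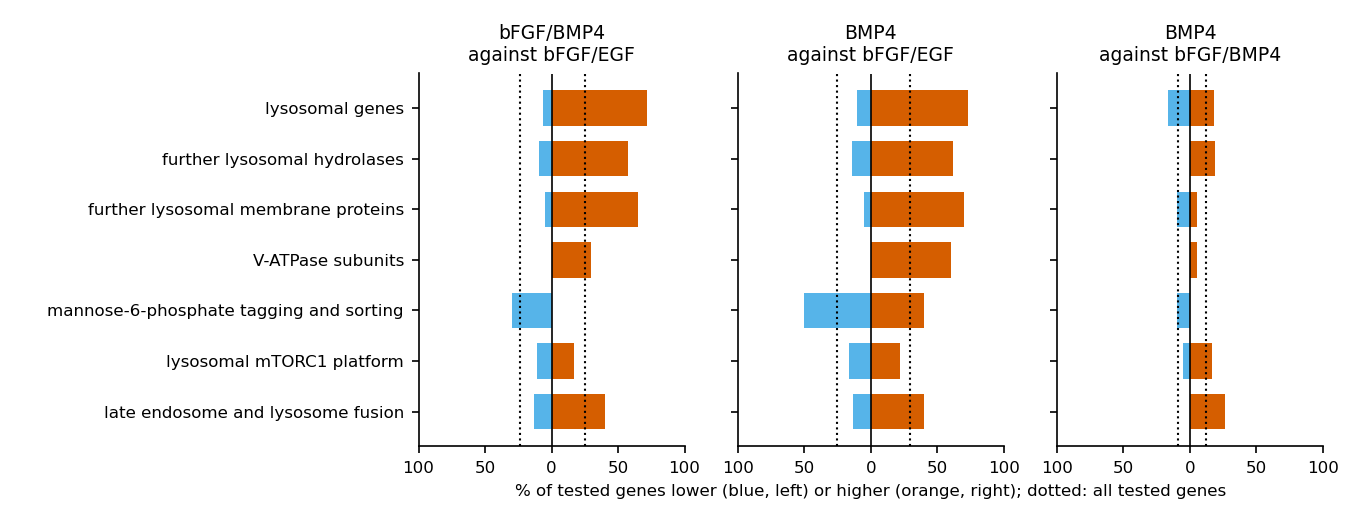
Share of the tested genes that were higher (orange, right of 0) or lower (blue, left of 0) at an adjusted p of at most 0.05, in percent, for the 49 lysosomal genes and 6 further lists, in each comparison (panels); dotted lines are the shares of all 20207 tested genes. The hydrolase, membrane and fusion lists pass the dotted line on the right in both comparisons with bFGF/EGF-treated NSCs. The fusion list passes it by less (40% in each, against 25% and 29.6%). In bFGF/BMP4-treated NSCs, the V-ATPase list on the right (30%, against 25%) and the mannose-6-phosphate list on the left (30%, against 23.6%) lie near the lines. In BMP4-treated NSCs, the V-ATPase list passes the line on the right (60%, against 29.6%). There the mannose-6-phosphate list of 10 genes passes on both sides (40% higher and 50% lower, against 29.6% and 25.3%).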

How the data were processed

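RNA from 9 libraries of cultured mouse NSCs was analysed. Per the methods and the labels, reads were trimmed with fastp 0.19.7, aligned to mm39 with HISAT2 2.0.5 and counted with featureCounts 1.5.0-p3, and the authors deposited 1 table of FPKM per gene and library. The strand setting of the counting is not given in the sources used here. The article of the authors lists raw counts in its supplement, and these were not used here. Since a count test is not used on FPKM, the DESeq2 test of the authors was replaced by limma 3.58.1 (R 4.3.3) with a trend on log2(FPKM + 0.1). The fit was to all 9 libraries, with Benjamini-Hochberg adjustment over the 20207 genes with a mean of at least 0.1 FPKM. A gene was called at an adjusted p of at most 0.05, and the share of calls that also changed at least 2-fold is given. Fold changes are on the log2(FPKM + 0.1) scale, which understates those of low genes.

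Each value of the 30860 genes above 0 was a whole multiple (tolerance 0.02) of 1 fragment's worth, from which the fragments per library, 15892854 to 17419822, were rebuilt. These give the depth, and limma-voom on them was 1 alternative. The other alternatives were a pseudocount of 1, no filter, a mean of at least 1 FPKM, scaling to a common sum (TPM scale), median-ratio scaling, quantile normalization, the replicate number as a block, only the 2 groups compared, and each library left out. The fit was tested on simulated data for the comparison of the groups at day 6. Among 18764 genes, 200 with a mean of at least 1 FPKM were changed, and all genes had the same dispersion. Of the changed genes, 72% of those at 2-fold and 97% of those at 4-fold were called, as were 9 unchanged genes. In the data, 4271 of 20207 genes were called in that comparison, so these rates need not hold for it.

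The members and the lists were chosen with earlier results of these data known. Values in every library are given for the transcription factors, the 5 members with the highest mean, and in each comparison the 4 called members that rose most and the 4 that fell most, or as many as were called. Members named beside these were chosen after their values were seen. Gene positions are those of GENCODE vM39 (GRCm39), and promoter windows those of RefSeq (GRCm38.p6). Tables and plots were made with Python 3.11.15, pandas 2.3.3, numpy 2.4.6 and matplotlib 3.10.9.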

Additional observations from a re-analysis of the deposited data

Results flagged for a closer look

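Cd63, a tetraspanin of late endosomes and exosomes, changed in opposite directions in the groups at day 6 against the same bFGF/EGF libraries, lower in bFGF/BMP4-treated and higher in BMP4-treated NSCs. The test of that difference is the comparison of the groups at day 6, with a log2 fold change of 1.59 and an adjusted p of 2.1e-04 (limma), in which all 3 BMP4 libraries were above all 3 bFGF/BMP4 libraries.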

How the results depend on the processing

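No called result changed direction under any alternative run. The median log2 fold change of the 49 genes in bFGF/BMP4-treated against bFGF/EGF-treated NSCs was 0.77 with a pseudocount of 1, which shrinks the changes of low genes by construction. In that comparison 5 members rather than 3 were lower with a mean of at least 1 FPKM, on the TPM scale and with limma-voom, since Ctsz and Gla then passed (adjusted p = 0.017 to 0.046). Under the alternatives that kept all libraries, 34 to 36 members were higher and 3 to 5 lower in bFGF/BMP4-treated NSCs, 33 to 37 higher and 5 to 7 lower in BMP4-treated NSCs, and 7 to 9 higher and 7 to 11 lower between the groups at day 6.

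With 1 library left out at a time, the counts in bFGF/BMP4-treated NSCs were 32 to 35 higher and 2 to 5 lower (median 0.87 to 0.95), those in BMP4-treated NSCs 33 to 36 higher and 4 to 7 lower (median 0.91 to 1.09), and those between the groups at day 6 were 6 to 9 higher and 4 to 9 lower (median -0.01 to 0.11).

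No clear pairing by replicate number was seen. Deviations from the group means correlated at -0.084 to 0.125 in same-numbered libraries and at -0.154 to 0.081 in differently numbered ones. With 3 libraries per group, this cannot exclude that same-numbered libraries shared an isolation. With the replicate block, 35 members were higher and 4 lower in bFGF/BMP4-treated NSCs, 36 and 5 in BMP4-treated NSCs, and 7 and 8 between the groups at day 6, where Arsb (adjusted p = 0.067) and Cd68 (0.065) no longer passed. Without any filter, with limma-voom or with a pseudocount of 1, Cd68 did not pass there either (0.059 to 0.11). Galc and Npc1, which did not pass as lower between the groups at day 6, passed under most alternatives that kept all libraries (0.028 to 0.048). Ctsz and Asah1 passed as lower in BMP4-treated than in bFGF/EGF-treated NSCs on the TPM scale (0.024 and 0.026). For Ctsh, 14 to 24 fragments per control library limit the precision, and Ctsk was too low in all libraries for a difference to be detected.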
